A study of Homo sapiens with 4 samples.

Results

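The long noncoding RNAs NEAT1, MALAT1, TUG1 and H19, the catalytic RNAs RMRP and RPPH1 and the small nucleolar RNA (snoRNA) host transcripts GAS5, SNHG1, SNHG5 and SNHG8 were followed in 4 poly(A) RNA libraries of H2030 cells, a long-established line from a human lung adenocarcinoma. They were taken by symbol, and all 10 were present among the 20252 symbols of the deposited expression table. Of the libraries, 2 carry the label GALNT3 overexpression (here OE-labelled) and 2 the label control vector (vector-labelled). All cells were grown without a recorded treatment for 2 days in RPMI with 10% serum at passage 5 to 10, and the labels name neither a clone nor separate cultures behind the replicates. GALNT3 encodes an enzyme of the Golgi that begins mucin-type O-glycosylation, and the study's contrast is between these labels. The set was chosen with the contrast between the labels already known, so its differences between the groups are given as a description. The members take part in the fit across all genes, and their calls there are printed beside the background and used as evidence of nothing.

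Levels are in FPKM, that is, fragments divided by a length set for the transcript and by the library's mapped fragments. How that length was set is not stated. The libraries detected 14705 to 14891 genes and had relative depths of 0.966 to 1.07. GALNT3 went against its label: its values were 0.0164 and 0 FPKM in the OE-labelled libraries, against 4.34 and 5.34 FPKM in the vector-labelled libraries. If the labels were exchanged, every direction below would turn round. The epithelial keratin KRT18 was at 439 and 420 FPKM in the OE-labelled libraries and at 370 and 331 FPKM in the vector-labelled ones, and KRT7 was at 4.24 and 5.18 FPKM in the OE-labelled libraries and at 7.503 and 7.18 FPKM in the vector-labelled ones. Neither was called (limma log2 change 0.30, adjusted p = 0.570 for KRT18; -0.55, adjusted p = 0.165 for KRT7). KRT8 was at 145 and 144 FPKM in the OE-labelled libraries and 141 and 109 FPKM in the vector-labelled ones. It was not called either (limma log2 change 0.21, adjusted p = 0.801). EPCAM was at 1.40 and 0.670 FPKM in the OE-labelled libraries and 0.543 and 0.459 FPKM in the vector-labelled ones. CLDN4 was at 0.218 and 0.157 FPKM in the OE-labelled libraries and 0.339 and 0.368 FPKM in the vector-labelled ones. KRT19 was listed at 0 in all 4 libraries and CDH1 stayed between 0.0495 and 0.209 FPKM. Of 14 markers of other cell types, 5 were listed at 0 in all 4 libraries. The marker with the highest level, the lysosomal glycoprotein CD68, was at 17.1 and 16.3 FPKM in the OE-labelled libraries and at 29.3 and 27.2 FPKM in the vector-labelled ones (log2 change -0.72, limma adjusted p = 0.0238, a call lost without vector replicate 1 or vector replicate 2), and its part in the differences below was not tested.

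NEAT1 is the architectural RNA of paraspeckles, nuclear bodies that hold back certain RNAs and proteins, and exists as a short polyadenylated form and a long form that alone builds the body. MALAT1, its neighbour on the chromosome, collects in nuclear speckles, where splicing factors are stored. RMRP and RPPH1 are the RNA subunits of RNase MRP and RNase P, related enzymes that share most of their proteins; the first cuts precursor ribosomal RNA and the second trims the 5′ ends of precursor transfer RNAs, and RNA polymerase III makes both RNAs without a poly(A) tail. GAS5 and the SNHG transcripts carry snoRNAs in their introns, and their spliced exons are translated poorly and are cleared by nonsense-mediated decay. TUG1 is a broadly expressed long noncoding RNA, and H19 is an imprinted growth-restraining RNA of fetal tissues.

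The catalytic RNAs are short enough to show nearly whole, which makes plain how little their 3′ ends resemble a poly(A) tail. GENCODE 29 (GRCh38) places RMRP at chr9:35657751-35658018 on the minus strand, as a 268-base transcript beside a second, nearly identical entry of the same name, and RPPH1 at chr14:20343075-20343407 on the minus strand, as a 333-base transcript, of which bases 34 to 333 are shown (chr14:20343075-20343374). Capitals mark GNAANNTC, the DNA form of a consensus from a conserved region of the RNase P family, searched on the transcript strand.
RMRP: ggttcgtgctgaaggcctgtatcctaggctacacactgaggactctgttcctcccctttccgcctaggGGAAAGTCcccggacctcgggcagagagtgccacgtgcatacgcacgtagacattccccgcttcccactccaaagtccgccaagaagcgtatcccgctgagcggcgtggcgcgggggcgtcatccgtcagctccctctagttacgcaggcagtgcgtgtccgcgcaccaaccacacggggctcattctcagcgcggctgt
RPPH1: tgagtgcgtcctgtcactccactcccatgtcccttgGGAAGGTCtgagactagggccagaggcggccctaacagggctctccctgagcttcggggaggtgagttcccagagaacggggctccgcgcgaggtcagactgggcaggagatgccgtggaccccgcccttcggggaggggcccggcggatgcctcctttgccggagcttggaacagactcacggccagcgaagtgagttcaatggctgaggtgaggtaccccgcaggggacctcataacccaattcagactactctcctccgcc
RMRP held 1 match, at bases 69 to 76, and RPPH1 held 2, at bases 8 to 15 (before the stretch shown) and 70 to 77. The letters are loose: 36.4% of RefSeq promoters of 300 bases hold them on either strand. Of the last 30 bases, 4 were A in RMRP and 8 in RPPH1, and the longest run of A was 3 bases in RMRP and 2 in RPPH1.

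NEAT1 (chr11:65422774-65445540, plus strand) and MALAT1 (chr11:65497688-65506516, plus strand) both end in an A-rich tract, shown because it takes the place of a poly(A) tail on the long transcripts. The last 100 bases of long NEAT1 (chr11:65445441-65445540) and the 100 bases of MALAT1 before its tRNA-like small RNA (chr11:65506017-65506116) follow, with the ending they have in common in capitals.
NEAT1: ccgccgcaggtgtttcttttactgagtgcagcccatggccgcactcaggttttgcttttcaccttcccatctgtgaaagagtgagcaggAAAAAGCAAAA
MALAT1: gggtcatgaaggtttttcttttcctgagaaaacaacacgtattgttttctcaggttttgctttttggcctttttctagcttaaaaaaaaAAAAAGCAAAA
The shared ending is 11 bases long. A made up 15 of the last 30 bases in NEAT1 and 18 in MALAT1, and the longest run of A was 5 bases in the NEAT1 window and 13 in the MALAT1 window. The short form of NEAT1 is polyadenylated instead. The first AATAAA, a poly(A) signal, after the annotated end of that form starts at base 3706 of the long form. It is shown in capitals within chr11:65426476-65426535.
NEAT1 short form: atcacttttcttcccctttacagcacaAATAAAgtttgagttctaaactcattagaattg
From that signal, 19032 bases lie between it and the end of the 22743-base long form.

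Host transcripts of snoRNAs often begin with a run of C and T, the terminal oligopyrimidine (TOP) start that ribosomal protein messages also carry. The 50 bases around the RefSeq start (GRCh38.p14) are shown for 3 hosts, with 25 bases on each side and the pyrimidine run nearest the start in capitals: SNHG1 at chr11:62855861-62855910 (minus strand), SNHG5 at chr6:85678709-85678758 (minus strand) and SNHG8 at chr4:118278737-118278786 (plus strand).
SNHG1: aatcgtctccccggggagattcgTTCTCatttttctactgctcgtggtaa
SNHG5: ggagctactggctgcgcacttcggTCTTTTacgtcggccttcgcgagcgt
SNHG8: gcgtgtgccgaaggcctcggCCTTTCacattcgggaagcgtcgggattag
CTTT lay within 10 bases of the RefSeq start in SNHG5 and SNHG8 and not in SNHG1 or GAS5. It is at the same distance in 9.1% of 35116 RefSeq promoters, and in 6.4% on the other strand (AAAG). For GAS5 the RefSeq start lies upstream of the GENCODE start. Its window is therefore not shown, and nothing is read from the GAS5 result. For the 3 hosts shown the RefSeq start also differs from the start of the GENCODE gene, lying downstream of it. Whether the marked runs stand at the start of the transcripts in these cells is therefore not known here.

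NEAT1 was lower in both OE-labelled libraries, at 92.2 and 95.6 FPKM, against 144 and 143 FPKM in the vector-labelled ones. The groups were far apart relative to their spread, with means of 93.9 ± 2.42 FPKM (OE-labelled) and 143.5 ± 0.952 FPKM (vector-labelled; SD, n = 2 each). On the log2(FPKM + 1) scale, which understates changes of low genes, the difference was -0.61 ± 0.087 (limma SE). MALAT1, read at 8.34 and 7.56 FPKM in the OE-labelled libraries and at 11.0 and 12.8 FPKM in the vector-labelled ones, also had both of its values below both vector values. Its means were 7.95 ± 0.547 FPKM (OE-labelled) and 11.9 ± 1.30 FPKM (vector-labelled; SD, n = 2 each), a difference of -0.53 ± 0.11 on the log2 scale. In bulk RNA, fewer cells that make a transcript and less of it per cell cannot be told apart.

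The pair of nuclear RNAs kept a similar ratio to each other. NEAT1 was 11.1 and 12.6 times MALAT1 per length in the OE-labelled libraries and 13.1 and 11.1 times in the vector-labelled ones, so the groups overlapped in this ratio. The depth-corrected ratio of fragments, GALNT3 overexpression over vector, was 0.654 for NEAT1 (95% exact counting interval 0.640 to 0.669) and 0.670 for MALAT1 (0.638 to 0.703). These intervals cover counting error only, not the spread between cultures. The fragments behind them came from the steps in the FPKM values: the nearest whole-number solution put NEAT1 at 6468 and 6660 fragments in the OE-labelled libraries and at 11157 and 10181 in the vector-labelled ones. The distance from whole numbers was 0.0093 for NEAT1 and 0.0053 for MALAT1, against 0.0324 and 0.0366 for the next solution. Lowest counts up to 8000 were tried, so a close solution can arise by chance and these counts are estimates. The ratio, though not the width of its interval, is the same for each solution.

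One fragment of NEAT1 was worth 0.0139 FPKM and one of MALAT1 0.00577 FPKM. If MALAT1 was counted on its 8708-base transcript, the NEAT1 value corresponds to 3614 bases, beside 3441 bases for the annotated short form and 22743 for the long one. On these counts, the length behind the deposited NEAT1 level is close to that of the short form. The counts of both genes are estimates, and another whole-number solution for either would give another length. The figure also assumes division by full length, while RMRP and RPPH1, below, come out shorter than their transcripts on the same scale. A level of the long form by itself was not analysed here.

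RMRP had the ratio of group means farthest from 1 of the 10 members. It was at 11.6 and 8.0 FPKM in the OE-labelled libraries, against 22.3 and 22.7 FPKM in the vector-labelled ones, with means of 9.78 ± 2.51 FPKM (OE-labelled) and 22.5 ± 0.343 FPKM (vector-labelled; SD, n = 2 each) and a log2 change of -1.14 ± 0.15. Behind these values stood few fragments: 16 and 11 in the OE-labelled libraries and 34 and 32 in the vector-labelled ones. The vector libraries nearly coincide, and both values of the other group lie below them. The sums were 27 fragments in the OE-labelled libraries and 66 in the vector-labelled ones, and the ratio after correction for depth was 0.435 (exact counting interval 0.267 to 0.690).

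RPPH1, the RNA of the sister enzyme, did not separate the groups. It was at 4.84 and 8.63 FPKM in the OE-labelled libraries and at 8.11 and 6.97 FPKM in the vector-labelled ones, with the lowest and the highest value both in the first group. The log2 change was -0.18 ± 0.22. In fragments RPPH1 had 13 and 23 in the OE-labelled libraries and 24 and 19 in the vector-labelled ones, a depth-corrected ratio of 0.890 with an interval of 0.555 to 1.42. That interval overlaps the RMRP interval, and whether the changes of the 2 RNAs differ was not tested. Within a library, RMRP had 1.23 fragments per RPPH1 fragment (0.555 to 2.78) in GALNT3 overexpression replicate 1, 0.478 (0.210 to 1.02) in GALNT3 overexpression replicate 2, 1.42 (0.816 to 2.50) in vector replicate 1 and 1.68 (0.926 to 3.14) in vector replicate 2. The 4 intervals overlap, and the lowest ratio is that of GALNT3 overexpression replicate 2.

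**Figure D1:**
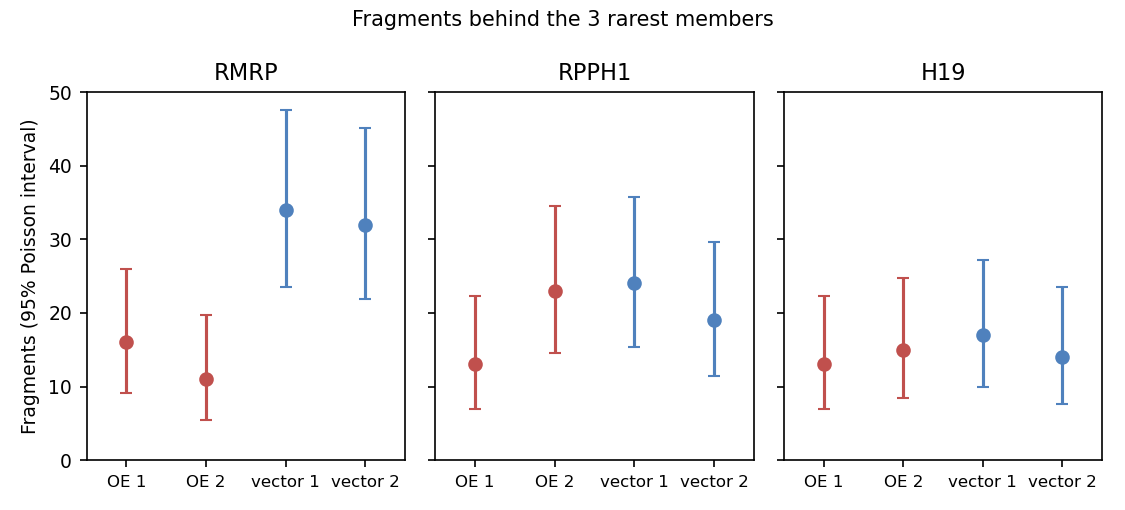
Fragments of RMRP, RPPH1 and H19 recovered from the FPKM steps (vertical axis, number of fragments) in each library, with GALNT3 overexpression (OE) left of vector and bars for 95% Poisson intervals. RMRP had 16 and 11 fragments (OE) against 34 and 32 (vector), while RPPH1 and H19 overlapped between the groups.

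The scale of such short RNAs needs care. One fragment of RMRP was worth 0.704 FPKM and one of RPPH1 0.363 FPKM, which on the MALAT1 scale corresponds to lengths of 71.3 and 138 bases where the transcripts have 268 and 333. On that scale, which rests on the estimated MALAT1 counts, their FPKM values are higher per fragment than their full length would give, in all 4 libraries alike. The levels of RMRP and RPPH1 are therefore not compared with those of long RNAs by size.

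The 4 snoRNA hosts were abundant and overlapped between the groups. GENCODE 29 places GAS5 at chr1:173863900-173868882 and SNHG1 at chr11:62851988-62855914, both on the minus strand, SNHG5 at chr6:85660950-85678748 on the minus strand and SNHG8 at chr4:118278709-118279823 on the plus strand. GAS5 was at 94.3 and 93.8 FPKM in the OE-labelled libraries and at 91.2 and 95.3 FPKM in the vector-labelled ones (log2 change 0.01 ± 0.086). SNHG1, which hosts a cluster of box C/D snoRNAs, was at 74.4 and 89.7 FPKM in the OE-labelled libraries and 71.6 and 91.2 FPKM in the vector-labelled ones (0.02 ± 0.14). In SNHG1 the replicates of each group lay farther apart than the group means. SNHG5 had the highest level of all 10 members, at 303 and 279 FPKM in the OE-labelled libraries and 282 and 266 FPKM in the vector-labelled ones (0.09 ± 0.10). SNHG8, host of SNORA24, was at 159 and 128 FPKM in the OE-labelled libraries and 133 and 148 FPKM in the vector-labelled ones (0.02 ± 0.13).

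Counting alone left narrow intervals for the hosts. The depth-corrected ratios were 1.01 for GAS5 (0.961 to 1.06), 1.01 for SNHG1 (0.963 to 1.07), 1.06 for SNHG5 (1.03 to 1.10) and 1.02 for SNHG8 (0.957 to 1.09). The SNHG5 interval excludes 1, but its libraries overlap and the difference is smaller than the SE of its log2 change. Relative to GAS5, SNHG5 stood at 3.22 and 2.98 times per length in the OE-labelled libraries and 3.10 and 2.79 times in the vector-labelled ones. SNHG8 stood at 2.13 and 1.42 times SNHG1 in the OE-labelled libraries and 1.85 and 1.62 times in the vector-labelled ones, so both ratios between hosts overlapped between the groups.

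TUG1 (chr22:30969245-30979395, plus strand) was at 28.8 and 28.3 FPKM in the OE-labelled libraries and at 31.9 and 31.3 FPKM in the vector-labelled ones. Both values lay below both vector values, by a small amount with tight replicates: the log2 change was -0.14 ± 0.084 and the depth-corrected ratio 0.903 (0.876 to 0.930). H19 (chr11:1995176-2001470, minus strand) was low, at 0.311 and 0.362 FPKM in the OE-labelled libraries and 0.369 and 0.330 FPKM in the vector-labelled ones. In fragments these are 13 and 15 in the OE-labelled libraries and 17 and 14 in the vector-labelled ones, a ratio of 0.960 (0.555 to 1.65), and H19 did not reach the mean of 1 FPKM set for the fit across genes.

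**Figure D2:**
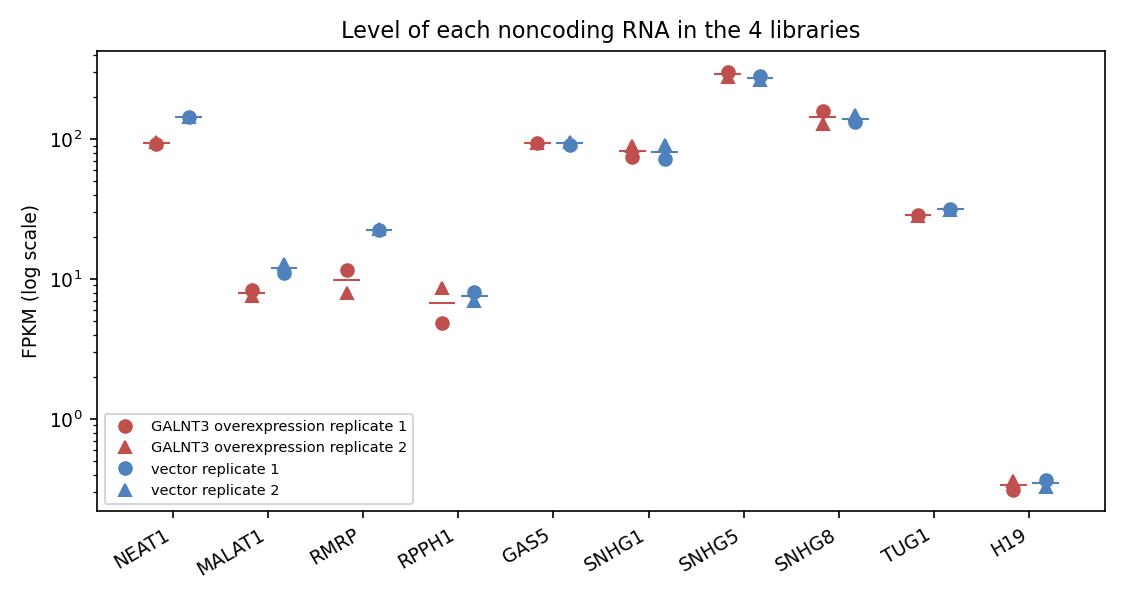
FPKM (vertical axis, log scale) of the 10 noncoding RNAs in each library, GALNT3 overexpression in red left of vector in blue, with circles for replicate 1, triangles for replicate 2 and bars for group means. NEAT1, MALAT1, RMRP and TUG1 have both red values below both blue ones, and the other 6 overlap.

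The order of levels per length differed in places between the groups. In the OE-labelled libraries, mean FPKM descended through SNHG5 (291), SNHG8 (143), GAS5 (94.0), NEAT1 (93.9), SNHG1 (82.1), TUG1 (28.5) and MALAT1 (7.95), and in the vector-labelled libraries through SNHG5 (274), NEAT1 (143.5), SNHG8 (140.2), GAS5 (93.3), SNHG1 (81.4), TUG1 (31.6) and MALAT1 (11.9). NEAT1 overlapped GAS5 in the OE-labelled libraries and SNHG8 in the vector-labelled ones, so its place among these neighbours is not fixed beyond the spread. H19 was lowest in both groups, with means of 0.336 FPKM (OE-labelled) and 0.349 FPKM (vector-labelled).

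To place the members among all genes, the whole table was fitted with limma on the 10998 genes whose mean over the libraries reached 1 FPKM, and a gene was called at a Benjamini-Hochberg adjusted p under 0.05. Of the 9 members that entered the fit, 2 were called, NEAT1 and RMRP, both lower in the OE-labelled libraries, beside 0.500% of all tested genes called in either direction and 0.391% called lower. Since the set was chosen from this contrast, the calls are no independent test of it, and nothing is read from that count. Both OE-labelled libraries lay below both vector libraries for 4 of the 9, beside 15.3% of all tested genes, and above them for 0 of the 9, beside 20.9% (36.2% for either direction). An unadjusted p under 0.05 was found for 7.34% of all tested genes. The median log2 change of the 9 was -0.14, against 0.02 over all tested genes. A lower log2 change than that of RMRP was found in 0.309% of tested genes, than that of NEAT1 in 1.09%, than that of MALAT1 in 1.36% and than that of TUG1 in 12.8%. The NEAT1 call was lost whenever any 1 library was left out, and the RMRP call was lost without vector replicate 1 or vector replicate 2, though the log2 changes stayed between -0.63 and -0.58 for NEAT1 and between -1.38 and -0.90 for RMRP.

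**Figure D3:**
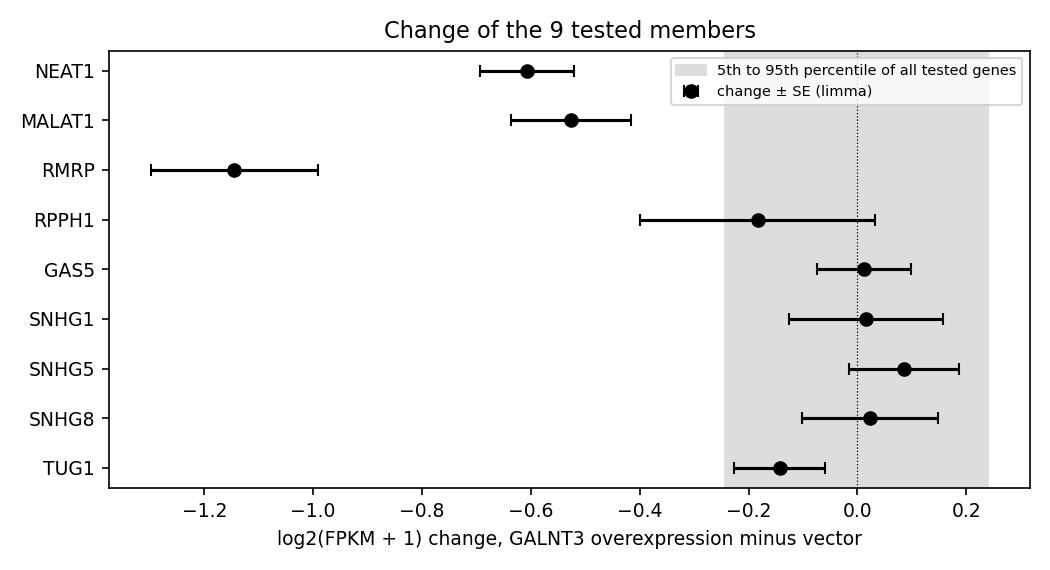
Log2(FPKM + 1) change, GALNT3 overexpression minus vector (horizontal axis), of the 9 noncoding RNAs in the fit, with points for the change, bars for the limma SE and a grey band from the 5th to the 95th percentile of all tested genes, -0.24 to 0.24. RMRP, NEAT1 and MALAT1 lie left of the band, and the point of each other member lies inside it.

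The proteins that work with these RNAs were examined as lists, each read by its counts and its median beside the background of 0.500% called. Of the 10 tested protein subunits of RNase MRP and RNase P, 0 were called by limma and 0 had an unadjusted p under 0.05, with a median log2 change of 0.02. RPP30, a shared subunit, was at 9.36 and 8.18 FPKM in the OE-labelled libraries and 10.4 and 9.93 FPKM in the vector-labelled ones (log2 change -0.20, adjusted p = 0.770). RPP25 was at 29.5 and 29.04 FPKM in the OE-labelled libraries and 26.98 and 25.3 FPKM in the vector-labelled ones (0.16, adjusted p = 0.778). Among 28 tested subunits and factors of RNA polymerase III, which transcribes RMRP and RPPH1, limma called 0, and 2 had an unadjusted p under 0.05: GTF3C6 of the TFIIIC complex (0.26, adjusted p = 0.570) and SNAPC2 of the snRNA-activating complex (0.23, adjusted p = 0.678). Their list median was 0.05.

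Paraspeckle proteins showed no call beside the lower NEAT1. Of 17 tested, 0 were called by limma and 0 had an unadjusted p under 0.05, with a median log2 change of 0.03. SFPQ, a core paraspeckle protein of the DBHS family, was at 116 and 128 FPKM in the OE-labelled libraries and 114 and 119 FPKM in the vector-labelled ones (0.06, adjusted p = 0.941). RBM14, needed for paraspeckles to form, had the smallest p of the list (16.7 and 18.97 FPKM in the OE-labelled libraries, 15.1 and 15.8 FPKM in the vector-labelled ones, adjusted p = 0.768). Of 17 nuclear speckle proteins, 0 were called and 0 had an unadjusted p under 0.05, with a median of 0.02. Among them METTL16, a methyltransferase that binds the MALAT1 triple helix, was at 9.46 and 10.1 FPKM in the OE-labelled libraries and 8.68 and 8.90 FPKM in the vector-labelled ones (0.14, adjusted p = 0.836).

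The wider family of snoRNA hosts held no call. Of 10 other hosts tested, limma called 0, and 1 had an unadjusted p under 0.05: SNHG10, at 25.4 and 22.0 FPKM in the OE-labelled libraries and 19.8 and 16.5 FPKM in the vector-labelled ones (log2 change 0.37, adjusted p = 0.467). The list median was 0.08. The 10 tested proteins that assemble with snoRNAs had 0 calls, 0 with an unadjusted p under 0.05 and a median of 0.08, with both OE-labelled libraries above both vector libraries for 5 of them, beside 20.9% of all tested genes. They included NOP10 (0.20, adjusted p = 0.799) and DKC1 (0.15, adjusted p = 0.817), both of the box H/ACA particle, and FBL (0.15, adjusted p = 0.832), the methyltransferase of the box C/D particle. Translation factors with TOP starts had 0 calls and 0 with an unadjusted p under 0.05 of 21 tested (median 0.10), nonsense-mediated decay factors 0 and 0 of 10 (median 0.01), and known decay targets 0 and 0 of 5 (median -0.06).

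Of 5 other long noncoding RNAs tested, limma called 1, the lung-enriched pseudogene transcript SFTA1P, at 27.1 and 28.7 FPKM in the OE-labelled libraries and 16.1 and 15.8 FPKM in the vector-labelled ones (log2 change 0.77 ± 0.087, adjusted p = 0.0155). The SFTA1P call was lost without vector replicate 1 or vector replicate 2. HOTAIR, MEG3, KCNQ1OT1 and UCA1 were listed at 0 in all 4 libraries. The subunits of PRC2, a chromatin repressor that has been tied to several long noncoding RNAs, had 0 calls and 0 with an unadjusted p under 0.05 of 7 tested (median -0.06). Imprinted genes of growth control, the class of H19, were listed together with CTCF, a DNA-binding protein that is not itself imprinted. The list had 0 calls of 9 tested genes, with a median of -0.01. MEST was the 1 among them with an unadjusted p under 0.05, at 11.3 and 11.1 FPKM in the OE-labelled libraries and 8.44 and 8.11 FPKM in the vector-labelled ones (0.39, adjusted p = 0.219). IGF2, the partner of H19 at its locus, was at 0.152 and 0.382 FPKM in the OE-labelled libraries and 0.197 and 0.118 FPKM in the vector-labelled ones.

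RMRP and RPPH1 have no poly(A) tail, so other RNAs without one were read beside them in these poly(A)-selected libraries. Of 23 short RNAs of this kind in the table, 10 were listed at 0 in all 4 libraries and 8 were tested, of which limma called 0 and 2 had an unadjusted p under 0.05, SCARNA17 and SCARNA9. SCARNA17, SCARNA22 and RNU11 reached the mean of 1 FPKM only through the OE-labelled libraries, so nothing is read from the list's median log2 change of 0.38. Without SCARNA22 and RNU11, which each rest on a single fragment in the 4 libraries, it was 0.08 over the other 6, an alternative chosen after seeing the data. SCARNA12, the most covered, had 59 and 57 fragments in the OE-labelled libraries and 57 and 65 in the vector-labelled ones. SCARNA17 had 7 and 11 fragments in the OE-labelled libraries and 0 and 3 in the vector-labelled ones (adjusted p = 0.163), and TERC had 0 and 4 in the OE-labelled libraries and 4 and 7 in the vector-labelled ones. Nothing is read from either direction. SCARNA17 entered the fit only through the group where it is high, and TERC overlapped between the groups and was not tested. The single fragment of SCARNA22, in GALNT3 overexpression replicate 1, was listed as 44.9 FPKM, and that of RNU11, in the same library, as 20.6 FPKM.

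Replication-dependent histone messages, which mostly end in a stem-loop in place of a tail, had a list median below that of all genes. Of 41 in the table, 15 were listed at 0 in all 4 libraries. Whether the values of the tested ones come from forms with or without a tail is not known here, so their median does not measure carry-over. Of 13 tested, limma called 0 and 4 had an unadjusted p under 0.05, with a median log2 change of -0.16 against 0.02 over all tested genes. HIST1H1C was at 32.7 and 34.3 FPKM in the OE-labelled libraries and 47.1 and 52.1 FPKM in the vector-labelled ones (-0.55, adjusted p = 0.0728). HIST1H4H was at 4.81 and 3.94 FPKM in the OE-labelled libraries and 6.82 and 9.48 FPKM in the vector-labelled ones (-0.76, adjusted p = 0.164), while HIST1H4J had a change of 0.45 the other way (adjusted p = 0.567). How far carry-over of RNA without a tail bears on the RMRP difference was not tested.

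**Figure D4:**
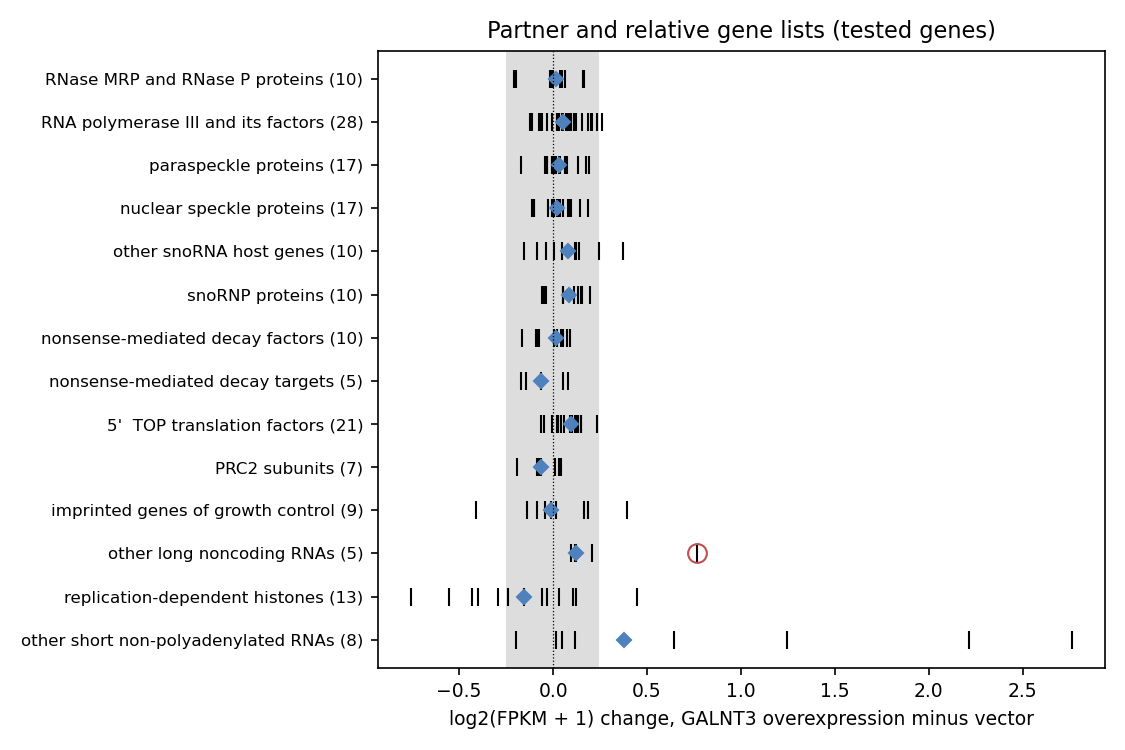
Log2(FPKM + 1) change, GALNT3 overexpression minus vector (horizontal axis), of each tested gene (ticks) in 14 lists of partners and relatives (rows, number of tested genes in brackets), with diamonds for list medians, a red circle for a called gene and a grey band from the 5th to the 95th percentile of all tested genes. SFTA1P is the circled gene at 0.77, and most ticks of the protein lists lie within -0.24 to 0.24.

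The genes whose values over the 4 libraries lay closest to NEAT1, by Euclidean distance of centred log2(FPKM + 1) values, were SULT1A1, a sulfotransferase, OCIAD2 and MYO10, an unconventional myosin, at distances of 0.0449, 0.0540 and 0.0595. SULT1A1 was at 1.71 and 1.73 FPKM in the OE-labelled libraries and at 3.24 and 3.24 FPKM in the vector-labelled ones. OCIAD2 was at 17.9 and 17.6 FPKM in the OE-labelled libraries and at 27.5 and 27.1 FPKM in the vector-labelled ones. Closest to RMRP were IFI16, an interferon-inducible DNA sensor, CBR3, a carbonyl reductase, and HTATIP2, at the larger distances of 0.250, 0.272 and 0.317. HTATIP2 was at 7.05 and 6.27 FPKM in the OE-labelled libraries and at 19.01 and 16.6 FPKM in the vector-labelled ones. With 4 libraries in 2 groups, any gene with a similar step between the groups comes out close. A Pearson r over 0.99 was found with NEAT1 for 76 other tested genes, and with RMRP for 55. Since the scale understates changes of low genes, closeness on it does not mean an equal ratio of FPKM. MYO10 was at 1.13 and 1.31 FPKM (OE-labelled) against 2.33 and 2.26 FPKM (vector-labelled), and CBR3 at 0.863 and 0.646 FPKM against 2.85 and 2.42 FPKM.

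Of the genes that adjoin or overlap a member, 6 were in the table, of which 4 were tested and 0 called. CCDC107, 271 bases from RMRP on the opposite strand, was at 5.15 and 5.62 FPKM in the OE-labelled libraries and 4.72 and 6.77 FPKM in the vector-labelled ones (log2 change -0.06, limma adjusted p = 0.965). PARP2, 174 bases from RPPH1 on the opposite strand, was at 51.2 and 52.5 FPKM in the OE-labelled libraries and 49.6 and 49.4 FPKM in the vector-labelled ones (0.07, adjusted p = 0.922). SLC3A2, a heavy chain of amino acid transporters 187 bases from SNHG1, was at 100.4 and 107 FPKM in the OE-labelled libraries and 111 and 112 FPKM in the vector-labelled ones (-0.10, adjusted p = 0.885). MORC2, 946 bases from TUG1, was at 10.2 and 10.6 FPKM in the OE-labelled libraries and 9.51 and 9.96 FPKM in the vector-labelled ones (0.09, adjusted p = 0.912). ZBTB37, which overlaps GAS5 on the opposite strand, and PRSS12, 214 bases from SNHG8, did not reach a mean of 1 FPKM. ZBTB37 was at 0.913 and 0.763 FPKM in the OE-labelled libraries and 1.27 and 0.808 FPKM in the vector-labelled ones, and PRSS12 at 0.944 and 0.998 FPKM in the OE-labelled libraries and 0.752 and 0.771 FPKM in the vector-labelled ones. MALAT1, GAS5, TUG1 and H19 overlap annotated transcripts of the opposite strand, and since the counting is not stated to use strand, fragments of such partners cannot be told apart. RPPH1 overlaps AL355075.4, which is annotated on the same strand, so strand would not separate the fragments of AL355075.4 from those of RPPH1.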

How the data were processed

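Poly(A) RNA of 4 H2030 libraries was sequenced after preparation with a stranded mRNA kit, per the labels' protocols. The authors deposited one table of FPKM per gene symbol and library. Its header names no unit, and FPKM was read from the values. Per the submitters' processing notes, TopHat, GenomeStudio 2010.1, GRCh38 and hg19 were used, with no roles given. For the counting program and annotation, nothing is given in the sources used here. NEAT1 and RMRP are among 2615 rows that stand out of alphabetical order in the deposited table.

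Values were taken as log2(FPKM + 1) for genes whose mean reached 1 FPKM and fitted with limma 3.58.1 (lmFit, eBayes with trend, R 4.3.3), with no term but group and Benjamini-Hochberg adjustment over all 10998 genes at 0.05. Tests are two-sided. An exact permutation test of 2 libraries against 2 cannot go below p = 0.333. Since nothing says that replicates came from separate cultures, p-values reflect how far these libraries spread, which may be technical variation. The procedure was tested on simulated data with independent normal noise and SDs shuffled across genes. Such data do not cover RNAs of few fragments, and no result here rests on them.

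Fragments were recovered, by a step chosen after the data were seen, from whole-number steps of FPKM (Python 3.11.15, scipy 1.17.1). Relative depth came from genes under 0.3 FPKM, of which 1173 of 1612 (72.8%) resolved within 0.001 of whole numbers. For the members the largest distance from a whole number was 0.013. Intervals are exact and cover counting error only. The total depth is unknown.

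The members and gene lists were chosen with earlier results of these data known. Named genes are GALNT3, the members, called genes and up to 4 further genes of smallest p per list, the 3 nearest profiles of NEAT1 and of RMRP, and adjoining genes. KRT19, CDH1, EPCAM, CLDN4, SFPQ, IGF2, SCARNA12, TERC and the long noncoding RNAs listed at 0 were named after their values were seen. Sequences come from GENCODE 29 and RefSeq. RefSeq promoters matched 7 members. Alternatives covered the pseudocount, filter, scaling, variance trend, zeros, a replicate block and each library left out.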

Additional observations from a re-analysis of the deposited data

How the results depend on the processing

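Over 13 alternatives the log2 change stayed below 0 for NEAT1 (-0.66 to -0.58), MALAT1 (-0.63 to -0.38), RMRP (-1.38 to -0.90) and TUG1 (-0.19 to -0.13), and crossed 0 for RPPH1 (-0.54 to 0.18), GAS5, SNHG1 and SNHG8. Against 55 calls (12 higher, 43 lower), 2 members and 2 list genes called, testing every gene above 0 gave 12 calls (3 higher, 9 lower), 0 members and 0 list genes. A mean of at least 5 FPKM gave 31 calls, 22 of them lower. Median centring and quantile normalization each left 1 member called, NEAT1, and a fit without the variance trend 1, RMRP. Leaving out 1 library at a time gave 23 to 83 calls (8 to 22 higher, 14 to 62 lower), 0 to 1 members and 0 to 4 list genes, a group of 1 being assumed to vary like the other; vector replicate 1 gave the lowest total and GALNT3 overexpression replicate 2 the highest. With a replicate block the calls came to 443 (222 higher, 221 lower), with 11 list genes and MALAT1 added to NEAT1 and RMRP, and 50.1% of calls were higher, against 21.8% without it. The labels do not say that a number marks a shared culture (r = 0.22 across genes between the deviations of same-numbered libraries), so this pairing is of numbers only. The cause of these shifts was not tested. Depth limits RMRP, RPPH1 and H19, which rest on 11 to 34 fragments per library.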
